A study of Arabidopsis thaliana with 4 samples.

Results

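The loci described here are the 30 chloroplast entries of a small RNA gene table that were listed by identifier as the rpo, rps and rpl genes of Arabidopsis thaliana. The list was drawn up with earlier results of these data known. These loci are 30 of 134 chloroplast entries and of 38194 genes in the table. The tables give identifiers alone, and the RefSeq gene table used for names (assembly TAIR10.1) matched 0 of the 134 chloroplast identifiers, so each locus is called by its identifier and its role is given only for the group as a whole. RefSeq lists 29 plastid entries whose symbols begin with rpo, rps or rpl. Of these, 4 are rpo entries, 14 are rps entries and 11 are rpl entries, and 4 of the 25 distinct symbols are listed in 2 entries.

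Chloroplasts keep a small genome of bacterial origin. Its rpo genes encode the core subunits of the plastid-encoded RNA polymerase, which transcribes much of that genome, and its rps and rpl genes encode proteins of the small and large subunits of the plastid ribosome; further ribosomal proteins, the sigma factors that guide the polymerase to promoters and the proteins that associate with it are encoded in the nucleus. Chloroplast transcripts are often made as long precursors that are cut and trimmed, and short chloroplast RNAs are known to include breakdown fragments and the remnants of transcript ends covered by RNA-binding proteins, so a read of small RNA length from these loci is not by itself a regulatory small RNA.

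Small RNAs were sequenced from seedlings taken 10 days after germination, grown on Murashige and Skoog medium or on soil at 22 °C in long days of 16 h light and 8 h dark. There were 2 libraries of PORI rpt2a, labelled as an rpt2a mutant, and 2 libraries of PORI, the control, and PORI is in the name of both groups. Neither the meaning of PORI nor the rpt2a allele is given in the labels. RPT2a is an ATPase subunit of the proteasome's regulatory particle, and by its title the study is about RPT2a in silencing after transcription and in the quality control of RNA. Nothing in the labels says that the libraries of a group came from separate cultures, so the spread that p-values are measured against is that of these libraries and may be technical.

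Depth differed between the libraries. The gene tables, which hold reads of 18 to 26 nt, summed to 4806891 and 2886928 counts in PORI rpt2a replicates 1 and 2, against 4696170 and 4038459 counts in PORI replicates 1 and 2. Where a group has a pair of values, they are those of replicate 1 and replicate 2. PORI rpt2a replicate 2 was the shallowest library and stood apart from the others. Its log-CPM values correlated with those of the other libraries at 0.699 to 0.821, against 0.914 between both PORI libraries. Chloroplast loci held 17.5% and 14.2% of gene counts in PORI rpt2a and 19.3% and 18.8% in PORI. Reads from the mutated gene, RPT2a, numbered 38 and 8 in PORI rpt2a and 27 and 21 in PORI, and small RNA reads do not measure its mRNA and check nothing about the mutation. All 4 shoot markers had reads in every library. RBCS1A, for the Rubisco small subunit, had 947 and 464 counts in PORI rpt2a, against 1410 and 1044 in PORI, and RBCS2B, its relative, had 237 and 76 in PORI rpt2a, against 421 and 296 in PORI. CAB1, for a light-harvesting protein, had 1719 and 804 counts in PORI rpt2a, against 1861 and 1419 in PORI, and CAB3 had 554 and 303 in PORI rpt2a, against 597 and 374 in PORI. The root markers also had reads in every library. PYK10 had 84 and 31 counts in PORI rpt2a, against 123 and 105 in PORI, and PBP1 had 74 and 25 in PORI rpt2a, against 111 and 109 in PORI. The seed storage genes CRA1, CRU3 and SESA1 had between 0 and 2 counts in every library. All these marker values are raw counts, not scaled to depth.

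Reads from the 30 loci were fewer in the mutant libraries. They numbered 4459 and 1090 in PORI rpt2a, against 7176 and 4975 in PORI. As a share of gene counts this was 0.0928% (95% Wilson interval 0.0901 to 0.0955) and 0.0378% (0.0356 to 0.0401) in PORI rpt2a, against 0.153% (0.149 to 0.156) and 0.123% (0.120 to 0.127) in PORI. The intervals cover counting error only. The groups did not overlap, and the mutant libraries lay further from each other than both PORI libraries did. The mean share was 0.0653% ± 0.0389 in PORI rpt2a and 0.138% ± 0.0209 in PORI (SD, n = 2 each), a log2 ratio of -1.08, and the two-sided exact permutation p = 0.33 is the smallest that 2 libraries against 2 can give. The log2 ratio was -0.57 when PORI rpt2a replicate 2 was left out, and -1.87 when replicate 1 was. In whole seedlings, fewer plastid-rich cells and fewer fragments per cell cannot be told apart.

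The loci were also a smaller part of the chloroplast reads. They held 0.530% and 0.266% of chloroplast counts in PORI rpt2a, against 0.791% and 0.656% in PORI. Most chloroplast reads came from a few far more abundant loci, so a closer comparison is with the 62 other chloroplast loci whose counts over the 4 libraries did not exceed 2213, the highest sum among the 30. Those 62 held 0.242% and 0.175% of gene counts in PORI rpt2a and 0.349% and 0.304% in PORI, also without overlap, at a log2 ratio of the means of -0.65. The log2 of the summed counts of the 30 loci over those of the 62 was -1.38 and -2.21 in PORI rpt2a, against -1.19 and -1.30 in PORI, a difference of -0.55 (two-sided exact permutation p = 0.33, the smallest possible). Leaving out PORI rpt2a replicate 2 gave a difference of -0.14, and leaving out replicate 1 gave -0.96. It was -0.03 when the median locus of each set was compared on the log2(CPM + 1) scale in place of the sums (exact permutation p = 1). There the values were -0.59 and -0.86 in PORI rpt2a and -0.70 and -0.68 in PORI, so the mutant libraries lay on either side of the control. With both pairs of matching entries described below left out, ATCG00840 and ATCG01300 among them, the difference of the sums was -0.47. The distance of the 30 loci from comparably covered chloroplast loci was thus small in the setting without PORI rpt2a replicate 2. Between the median loci it was small only as a mean over the mutant libraries.

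**Figure D1:**
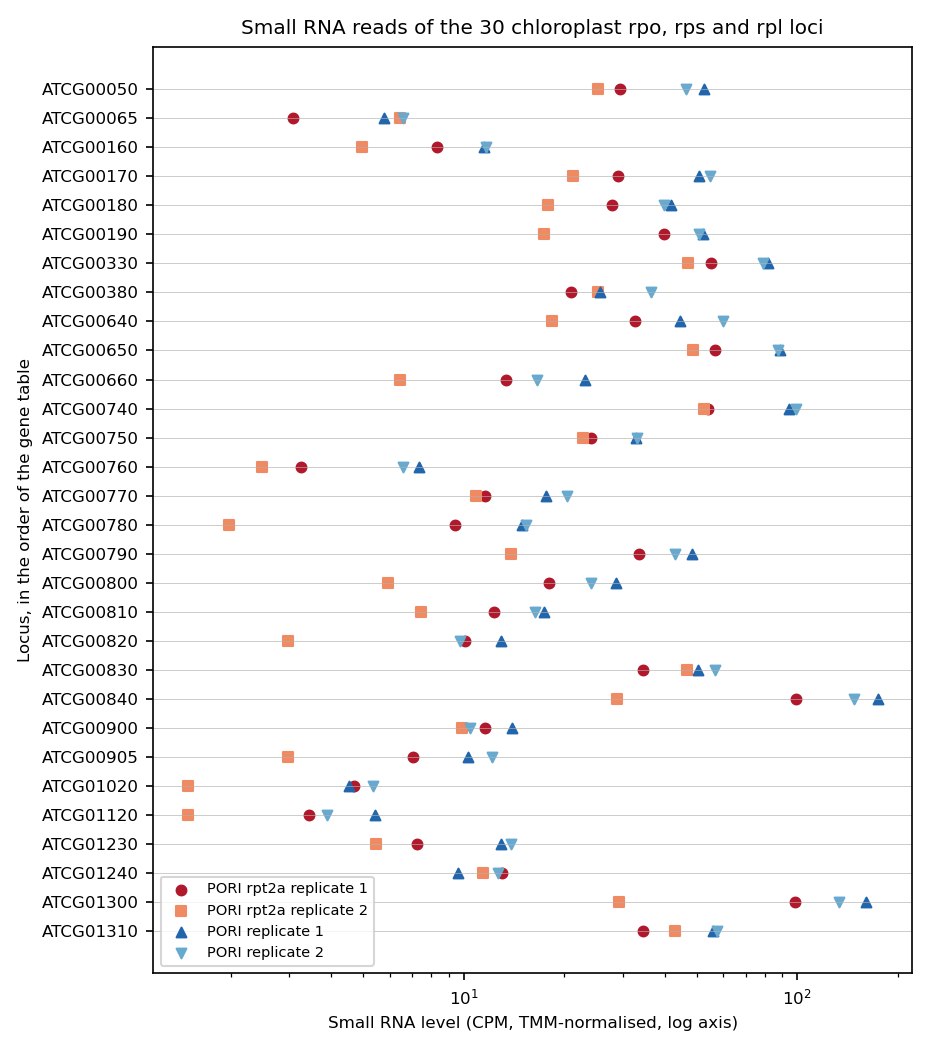
Small RNA reads per locus in CPM (read counts scaled to library size, log axis) for the 30 loci, in the order of the gene table, with 1 point per library for PORI rpt2a and PORI. In 25 of the 30 loci both PORI rpt2a points lie below both PORI points, and PORI rpt2a replicate 2 is the lowest library in most loci.

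Locus by locus, levels are given as CPM, read counts scaled to library sizes that were adjusted by the TMM method. The TMM factors were 1.15 and 0.699 in PORI rpt2a and 1.22 and 1.02 in PORI. This scaling raised the levels of PORI rpt2a replicate 2 and lowered those of the other libraries, relative to shares of gene counts. Levels are not divided by length, since lengths were not at hand for these identifiers, so they are compared between libraries and not between loci. Both PORI rpt2a libraries lay below both PORI libraries in 25 of the 30 loci. Of all 8110 genes tested, 29.6% did so, and of the 103 other chloroplast loci tested 54 did. PORI rpt2a replicate 1 lay below both PORI libraries in 26 loci and PORI rpt2a replicate 2 in 28. Between the mutant libraries, replicate 2 was below replicate 1 in 26 loci, and in 11 of them replicate 1 was more than 2 times replicate 2. Both PORI libraries lay within that factor of each other in every one of the 30. For these counts of single libraries and of gaps between replicates, the share over all genes was not taken. They therefore do not set the 30 loci apart from other genes.

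No locus passed the test. On simulated data the edgeR test recovered 7% of 2-fold and 70% of 4-fold changes, so a lack of calls does not show a lack of change. The simulation gave every gene and library the same fixed spread between replicates. Its rates hold for that setting and were not measured for these libraries. All 30 passed the filter on low counts, and edgeR's quasi-likelihood test, adjusted by Benjamini-Hochberg over all genes tested, called 0 of them at 0.05, where it called 0.0247% of all genes lower and 0% higher. DESeq2 called 0 of the 28 loci to which it gave an adjusted p, where it called 1.11% of its genes lower and 8.7% higher. At an unadjusted p under 0.05, edgeR had 8 of the 30, all lower, against 7.61% of all genes lower and 15.5% higher. The fitted log2 fold change of PORI rpt2a over PORI was below 0 in 29 of the 30 loci, against 51.3% of all genes. Its median over the 30 was -0.80, with a range from -1.33 to 0.15, and over all genes tested the median was -0.03. The 103 other chloroplast loci tested had a median of -0.35, and 71 of them were below 0. Without PORI rpt2a replicate 2 the median of the 30 was -0.49, and edgeR called 0 of them, against 2.06% of all genes lower and 11.1% higher. Without PORI rpt2a replicate 1 it was -1.20, and edgeR then called 18 loci lower, at a setting in which it called 13.5% of all genes lower and 16.2% higher and the lone mutant library is assumed to vary like the others.

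The 8 loci with an unadjusted p under 0.05 were mostly those in which the mutant libraries lay close together. ATCG00170 had 29.1 and 21.3 CPM in PORI rpt2a, against 50.9 and 54.8 CPM in PORI, a log2 fold change of -1.06 (SE 0.31, adjusted p = 0.118, edgeR), the smallest adjusted p of the 30. ATCG00740 had 53.8 and 52.5 CPM in PORI rpt2a, against 94.4 and 98.9 CPM in PORI, at -0.86 (SE 0.28, adjusted p = 0.146, edgeR). In both loci the groups were far apart relative to the gap between replicates. ATCG00050 had 29.5 and 25.3 CPM in PORI rpt2a and 52.4 and 46.5 CPM in PORI, at -0.85 (SE 0.29). ATCG00650 had 56.6 and 48.6 CPM in PORI rpt2a and 88.7 and 87.4 CPM in PORI, at -0.74 (SE 0.29). Neither depended on 1 mutant library to the extent seen elsewhere, with -0.67 and -0.56 without PORI rpt2a replicate 2.

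The other 4 of these 8 were ATCG00180, ATCG00640, ATCG00760 and ATCG01230. ATCG00180 had 27.8 and 17.8 CPM in PORI rpt2a and 41.8 and 39.9 CPM in PORI, at a log2 fold change of -0.82 (SE 0.34), and -0.48 without PORI rpt2a replicate 2. ATCG00640 had 32.5 and 18.3 CPM in PORI rpt2a and 44.4 and 59.9 CPM in PORI, at -1.02 (SE 0.39), and -0.60 without that library. The spread within both groups of ATCG00640 was wide, but the groups stayed apart. ATCG01230 had 7.23 and 5.45 CPM in PORI rpt2a and 12.9 and 13.9 CPM in PORI, at -1.05 (SE 0.38). Whether ATCG01230 shares reads with another entry was not tested, because it had too few counts for the search described below. ATCG00760, with 92 counts in all, had 3.25 and 2.48 CPM in PORI rpt2a and 7.32 and 6.58 CPM in PORI, at -1.23 (SE 0.42). Adjusted p-values for these 4 ran from 0.163 to 0.214 (edgeR).

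ATCG00840 and ATCG01300, the loci with most reads, had low fitted fold changes with wide errors. ATCG00840 had 98.8 and 28.7 CPM in PORI rpt2a, against 174.1 and 148.3 CPM in PORI, a log2 fold change of -1.33 (SE 0.59, adjusted p = 0.248, edgeR). ATCG01300 had 98.7 and 29.2 CPM in PORI rpt2a, against 160.5 and 133.5 CPM in PORI, at -1.19 (SE 0.58, adjusted p = 0.288, edgeR). In each, PORI rpt2a replicate 2 was far below replicate 1, and without replicate 2 the values were -0.63 and -0.49. The level in these entries is uncertain, because they may hold reads of the same sequence. Over the 36 cells of 4 libraries and 9 lengths their counts correlated at 0.993, as a description, and their length profiles did not differ beyond counting error. The totals of both entries were 2213 and 2074 counts, a difference just beyond counting error. ATCG00830 and ATCG01310 had totals and profiles that did not differ beyond counting error, but their counts correlated at 0.835, which is no higher than in some other pairs of the 30, so that they share reads is less certain. ATCG00830 had 34.5 and 46.6 CPM in PORI rpt2a and 50.5 and 56.8 CPM in PORI, at -0.41 (SE 0.31), and -0.15 without PORI rpt2a replicate 1. ATCG01310 had 34.5 and 43.1 CPM in PORI rpt2a and 55.9 and 57.5 CPM in PORI, at -0.55 (SE 0.29), and -0.34 without that library. In this pair PORI rpt2a replicate 2 was the higher of the mutant libraries, opposite to the first pair. How reads that fit both entries were counted is not given in the sources used here. Such pairs were sought only among loci with at least 500 counts, so other entries of the 30 may share reads too.

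**Figure D2:**
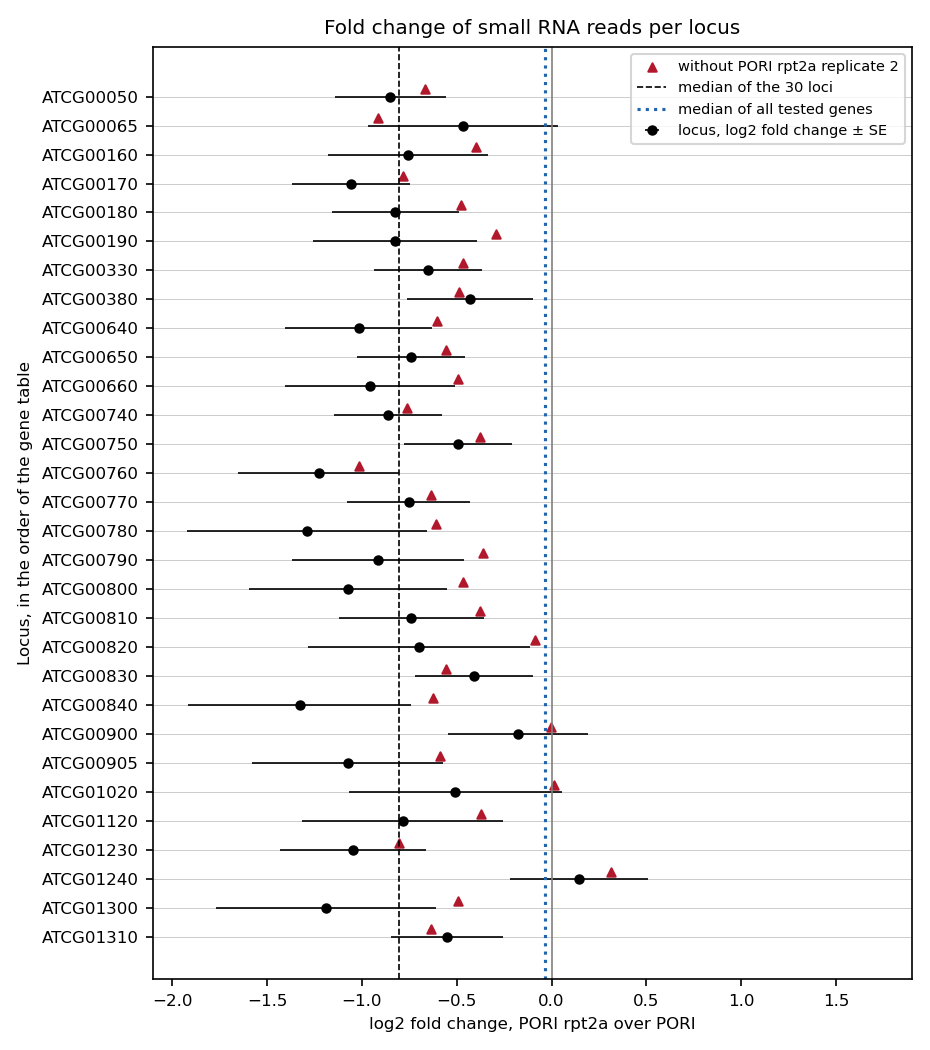
Fitted log2 fold change of PORI rpt2a over PORI for each of the 30 loci with its standard error (black), the same value without PORI rpt2a replicate 2 (red triangles), and the medians of the 30 loci (dashed, -0.80) and of all tested genes (dotted, -0.03). All loci but ATCG01240 lie left of 0, and without PORI rpt2a replicate 2 most lie closer to 0.

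Some entries follow each other in the gene table as neighbouring rows. ATCG00160, ATCG00170, ATCG00180 and ATCG00190 form a run of 4, whose summed level was 105 and 61.4 CPM in PORI rpt2a, against 156 and 157 CPM in PORI. ATCG00160 had 8.31 and 4.96 CPM in PORI rpt2a and 11.5 and 11.7 CPM in PORI. ATCG00190 had 39.8 and 17.3 CPM in PORI rpt2a and 52.1 and 50.7 CPM in PORI. The log2 fold changes of the run lay between -1.06 and -0.76, close together, although ATCG00190 was at -0.29 and ATCG00160 at -0.40 without PORI rpt2a replicate 2. ATCG00640, ATCG00650 and ATCG00660 form a run of 3, with a summed level of 102 and 73.3 CPM in PORI rpt2a and 156 and 164 CPM in PORI. ATCG00660 had 13.4 and 6.44 CPM in PORI rpt2a and 23.2 and 16.6 CPM in PORI, at -0.96 (SE 0.45), and -0.49 without PORI rpt2a replicate 2.

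The longest run held 11 entries, from ATCG00740 to ATCG00840, with a summed level of 310 and 196 CPM in PORI rpt2a and 499 and 473 CPM in PORI. Its loci differed in how far apart the groups lay. ATCG00750 had 24.03 and 22.8 CPM in PORI rpt2a and 32.9 and 33.1 CPM in PORI, at -0.49 (SE 0.29). ATCG00770 had 11.6 and 10.9 CPM in PORI rpt2a and 17.6 and 20.5 CPM in PORI, at -0.75 (SE 0.33). In both of these the mutant libraries gave nearly the same level. In the middle of the run they did not. ATCG00780 had 9.40 and 1.98 CPM in PORI rpt2a and 14.98 and 15.3 CPM in PORI, at -1.29 (SE 0.63). ATCG00790 had 33.6 and 13.9 CPM in PORI rpt2a and 48.4 and 42.9 CPM in PORI, at -0.92 (SE 0.45). ATCG00800 had 18.1 and 5.95 CPM in PORI rpt2a and 28.6 and 24.1 CPM in PORI, at -1.07 (SE 0.52). Without PORI rpt2a replicate 2 the values of ATCG00780, ATCG00790 and ATCG00800 were -0.61, -0.36 and -0.46. ATCG00810 had 12.3 and 7.43 CPM in PORI rpt2a and 17.4 and 16.3 CPM in PORI, at -0.74 (SE 0.38), and -0.38 without that library. ATCG00820 had 10.1 and 2.97 CPM in PORI rpt2a and 12.9 and 9.74 CPM in PORI, so its groups overlapped. Its value of -0.70 (SE 0.59) was -0.09 without PORI rpt2a replicate 2.

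The remaining loci stood alone or in pairs. ATCG00330 had 55.1 and 47.1 CPM in PORI rpt2a and 81.7 and 79.2 CPM in PORI, at -0.65 (SE 0.29). ATCG00380 had 20.96 and 25.3 CPM in PORI rpt2a and 25.6 and 36.5 CPM in PORI, at -0.43 (SE 0.33), but at -0.09 without PORI replicate 2 and at -0.02 with chloroplast genes fitted alone. Its groups were separated by less than the gap between replicates. ATCG00905 had 7.05 and 2.97 CPM in PORI rpt2a and 10.3 and 12.2 CPM in PORI, at -1.07 (SE 0.50), and -0.59 without PORI rpt2a replicate 2. Its neighbour ATCG00900 had 11.6 and 9.91 CPM in PORI rpt2a and 13.9 and 10.5 CPM in PORI, at -0.18 (SE 0.37), with overlapping groups. ATCG01240, next to ATCG01230, had 13.0 and 11.4 CPM in PORI rpt2a and 9.58 and 12.7 CPM in PORI, and was the one locus with a positive value, 0.15 (SE 0.36). Its groups overlapped, and its sign turned with the total of the 3 tables as library size (-0.057) and without PORI replicate 1 (-0.034). ATCG00900, ATCG00905, ATCG01230 and ATCG01240 had too few counts for the search for entries that share reads. Whether any of them hold the same reads was not tested, so their levels are uncertain and may not be separate measurements. The 3 loci left, ATCG00065, ATCG01020 and ATCG01120, had 69 to 90 counts over the 4 libraries and values between -0.78 and -0.47, and the groups overlapped in the first 2 of them.

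**Figure D3:**
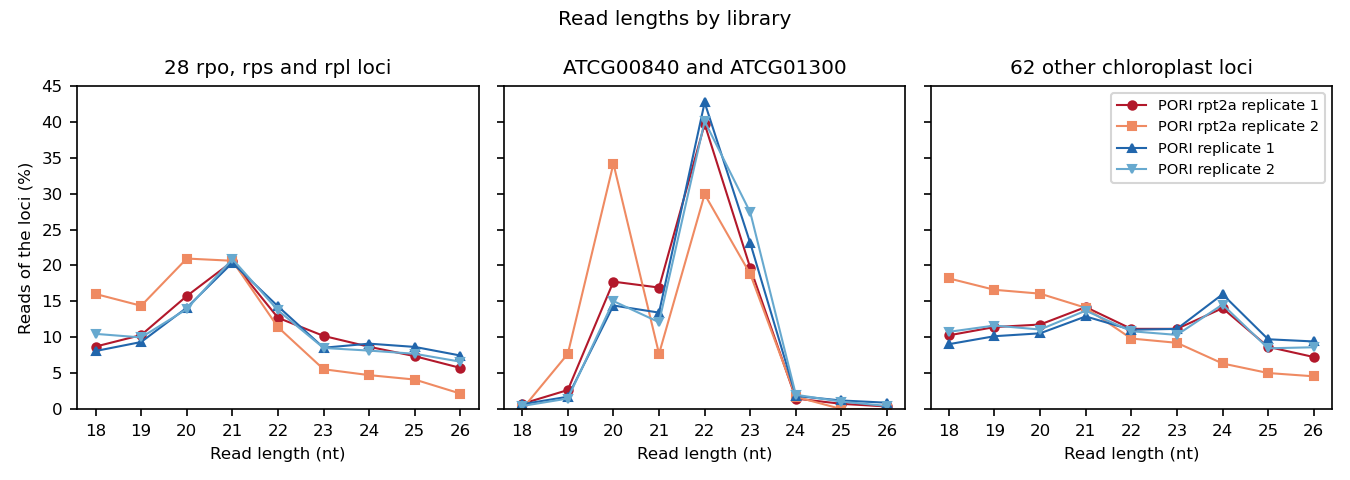
Percent of reads of each length, 18 to 26 nt, in each library of PORI rpt2a and PORI for 28 of the 30 loci (left), ATCG00840 and ATCG01300 (middle) and 62 other chloroplast loci (right). PORI rpt2a replicate 2 has the highest share of 18 to 20 nt reads in each panel, in the middle one at 19 and 20 nt, while PORI rpt2a replicate 1 lies near the PORI libraries.

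Fragment length was read from the separate counts for each length. Mean length over the 30 loci was 21.6 and 20.7 nt in PORI rpt2a, against 21.8 and 21.6 nt in PORI. Reads of 18 to 20 nt made up 31.4% (95% Wilson interval 30.1 to 32.8) and 50.4% (47.4 to 53.3) in PORI rpt2a, against 27.6% (26.6 to 28.7) and 30.3% (29.1 to 31.6) in PORI. The difference of the means was 11.9 percentage points (two-sided exact permutation p = 0.33, the smallest possible, and 0.5 after adjustment over the lengths and classes), and it was 2.45 points without PORI rpt2a replicate 2. Reads of 21 to 24 nt made up 58.4% and 44.0% in PORI rpt2a and 60.0% and 58.4% in PORI, and reads of 25 to 26 nt 10.2% and 5.596% in PORI rpt2a and 12.4% and 11.3% in PORI. PORI rpt2a replicate 1 was thus near the PORI libraries in all 3 classes, while replicate 2 was not. The shift in that library was not limited to these loci. Over all genes, reads of 18 to 20 nt made up 32.6% and 43.2% in PORI rpt2a and 28.4% and 32.5% in PORI. In the 62 comparably covered chloroplast loci they made up 33.5% and 50.9% in PORI rpt2a and 29.7% and 33.5% in PORI. The part that this library-wide shift has in the values of the 30 loci was not tested.

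On library sizes taken over all lengths together, the ratio of mutant to control level was lower for longer fragments, an order that the separate fits by length class, each with its own scaling, did not give. Summed over the 30 loci, reads of 18 to 20 nt reached 253 and 272 CPM in PORI rpt2a and 345 and 368 CPM in PORI, a ratio of the means of 0.736. Reads of 21 to 24 nt reached 471 and 238 CPM in PORI rpt2a and 751 and 707 CPM in PORI, a ratio of 0.486. Reads of 25 to 26 nt reached 81.8 and 30.2 CPM in PORI rpt2a and 155 and 137 CPM in PORI, a ratio of 0.384. In the shortest class the mutant libraries nearly matched, and in both longer classes replicate 2 was far below replicate 1. At 18 nt the groups overlapped, with 54.4 and 77.3 CPM in PORI rpt2a and 76.3 and 98.6 CPM in PORI. At each length from 19 to 26 nt both PORI rpt2a libraries were below both PORI libraries.

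**Figure D4:**
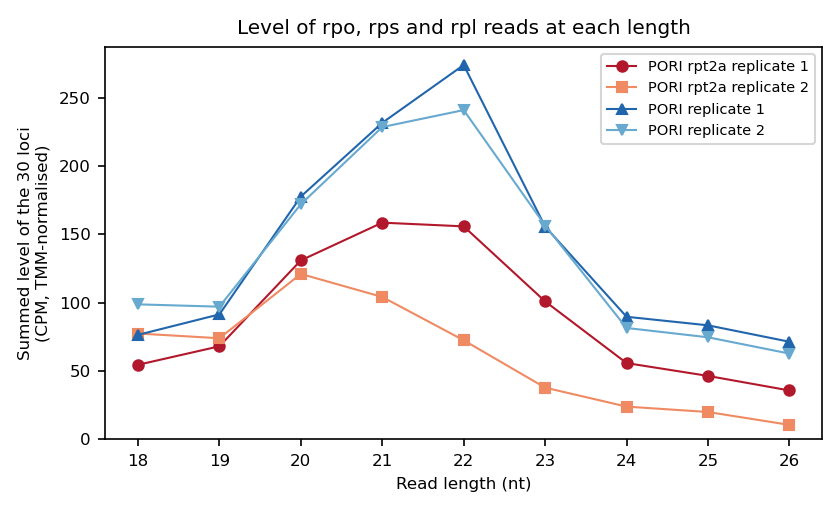
Summed level of the 30 loci at each read length in CPM, with 1 line per library of PORI rpt2a and PORI. The gap between the groups is widest at 21 to 23 nt in CPM, and the groups overlap at 18 nt.

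Fitted separately by length class, again no locus passed edgeR's adjusted threshold. Among reads of 21 to 24 nt, 29 of the 30 loci could be tested, all 29 had a log2 fold change below 0, and the median was -1.004. edgeR called 0 of them, against 0% of 6545 genes, and DESeq2 called 0, against 1.27% of its genes lower. At an unadjusted p under 0.05 edgeR had 9, against 9% of all genes lower, and in 25 of the 29 both mutant libraries lay below both controls, against 32.2% of all genes. Other settings gave other counts: 1 called lower without the low-count filter (0.705% of all genes), 17 when PORI rpt2a replicate 1 was left out (14.4%) and 2 when replicate 2 was (2.26%). The smallest adjusted p in this class, 0.0827, belonged to ATCG00740, at -1.21 (SE 0.30, edgeR). Among reads of 18 to 20 nt, 27 loci were tested, with a median of -0.68 and 25 below 0. There both mutant libraries lay below both controls in 18, against 26.2% of all 1444 genes. edgeR called 0, against 0% of all genes lower and 0% higher, and DESeq2 called 0, against 0.461% of its genes lower. At an unadjusted p under 0.05 edgeR had 0, against 4.43% of all genes lower. Among reads of 25 to 26 nt, 21 loci were tested, with a median of -0.57 and 20 below 0. In this class both mutant libraries lay below both controls in 12, against 26.4% of all 656 genes. edgeR called 0, against 0% of all genes lower and 0% higher, and DESeq2 called 0, against 0.0226% of its genes lower. At an unadjusted p under 0.05 edgeR had 1, against 3.35% of all genes lower. Differences between the classes were not tested.

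Compared with chloroplast loci of similar coverage, the summed reads of the 30 loci had larger shares of 20 to 22 nt. Relative to the 62 comparably covered loci, the share of 22 nt reads was 7.91 percentage points higher on average over the 4 libraries, that of 21 nt reads 5.34 points higher and that of 20 nt reads 4.38 points higher. The share of 24 nt reads was 6.44 points lower. Each of these differences had the same sign in all 4 libraries, mutant and control, and each has the smallest p that a two-sided exact sign-flip test over 4 libraries can give, which is 0.136 after adjustment over lengths and classes. Against all 104 other chloroplast loci the differences were 7.96 points at 22 nt and 6.60 points at 21 nt, but 1.79 points at 20 nt, positive in 3 of the 4 libraries, and -1.63 points at 24 nt. The excess at 22 nt lay largely in ATCG00840 and ATCG01300. Reads of 22 nt made up 19.3% and 13.4% in PORI rpt2a and 21.9% and 19.9% in PORI over the 30 loci, but 12.7% and 11.4% in PORI rpt2a and 14.3% and 13.8% in PORI over the 28 without these entries. In the 62 loci they made up 11.2% and 9.82% in PORI rpt2a and 11.0% and 10.8% in PORI. Reads of 21 nt were uneven too, from 8.70% of ATCG00900 to 43.9% of ATCG00650. Their share was highest in ATCG00640, ATCG00650, ATCG00740 and ATCG00750. The shares at 20 and 21 nt without these 4 loci were not taken, so the excess is that of the summed reads and not of each locus.

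The 30 loci did not share 1 profile. Over the 4 libraries the most frequent length was 21 nt in 13 loci, 22 nt in 6, 20 nt in 4 and 18 nt in 3, and it was 23, 24 or 25 nt in the other 4. Of the 14 loci with at least 500 counts, ATCG00640, ATCG00650, ATCG00740 and ATCG00750 peaked at 21 nt in all 4 libraries. Reads of 21 nt made up 41.4% of ATCG00640, 43.9% of ATCG00650, 33.2% of ATCG00740 and 31.3% of ATCG00750. In ATCG00650 the share was 44.7% and 37.8% in PORI rpt2a and 44.6% and 44.0% in PORI, and in ATCG00740 it was 28.9% and 33.0% in PORI rpt2a and 34.3% and 35.0% in PORI. ATCG00640 had 47.8% and 45.9% in PORI rpt2a and 36.9% and 40.7% in PORI, based on 37 reads in PORI rpt2a replicate 2. These 4 were picked for that shared peak. Some other loci with at least 500 counts had another most frequent length in PORI rpt2a replicate 2 than in the rest, such as ATCG00170 with 18 nt in that library and 24 nt in the other 3. In ATCG00050, ATCG00790, ATCG00830 and ATCG01310 that library shared its most frequent length with at least 1 other library.

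**Figure D5:**
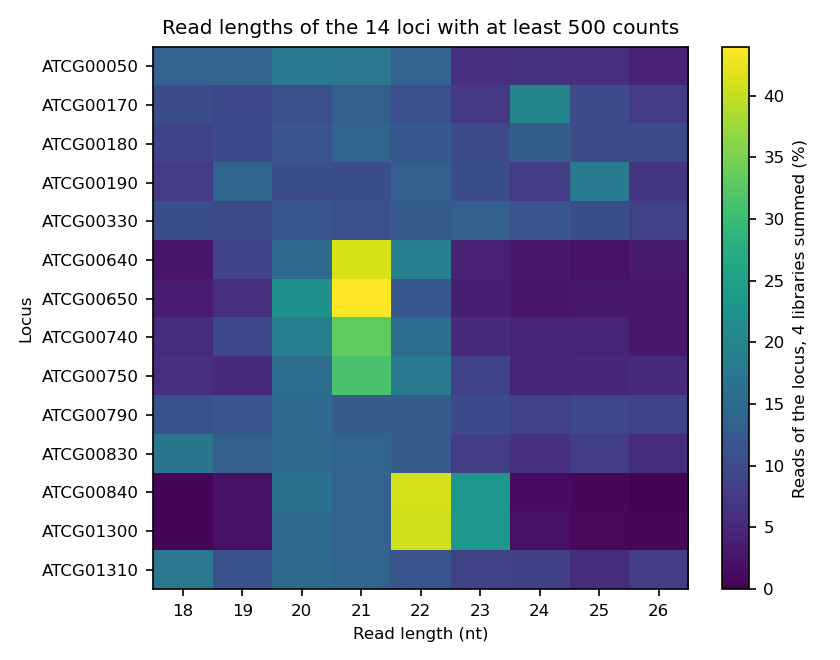
Percent of a locus's reads at each length from 18 to 26 nt (colour), over the 4 libraries summed, for the 14 loci with at least 500 counts. ATCG00640, ATCG00650, ATCG00740 and ATCG00750 have their peak at 21 nt and ATCG00840 and ATCG01300 at 22 nt, while most other loci spread over all lengths.

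ATCG00840 and ATCG01300 peaked at 22 nt, with 41.0% and 40.7% of their reads at that length and 23.1% and 23.4% at 23 nt, and together they held 24.5% and 10.7% of the reads of the 30 loci in PORI rpt2a and 26.8% and 23.3% in PORI. Few of their reads were of 18 or 19 nt or of 24 nt or more. For the pair summed, the share of 22 nt reads was 39.7% and 29.9% in PORI rpt2a and 42.7% and 40.1% in PORI, and the share of 20 nt reads was 17.7% and 34.2% in PORI rpt2a and 14.4% and 15.04% in PORI. PORI rpt2a replicate 2 therefore had more 20 nt than 22 nt reads in the pair, on 117 reads, with 95% Wilson intervals of 26.2 to 43.2% at 20 nt and 22.4 to 38.7% at 22 nt, which overlap. In the other 3 libraries 22 nt was the most frequent length.

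Narrow excesses at longer lengths appeared in ATCG00170 and ATCG00190, but not in ATCG00180 between them. In ATCG00170, reads of 24 nt made up 19.97% of all, with 21.7% and 2.33% in PORI rpt2a and 20.9% and 20.9% in PORI. The low value is 1 of 43 reads (95% Wilson interval 0.412 to 12.1%), below the intervals of the other libraries, which start at 16.1%. A lower share of 24 nt reads in that library was not limited to this locus. Over the 62 comparably covered loci it was 14.1% and 6.35% in PORI rpt2a and 16.0% and 14.6% in PORI. Over all genes it was 13.0% and 8.58% in PORI rpt2a and 13.5% and 11.8% in PORI. In ATCG00190, reads of 25 nt made up 18.2% of all, with 19.5% and 14.3% in PORI rpt2a and 21.4% and 13.0% in PORI, so the groups overlapped. ATCG00050, ATCG00180, ATCG00330, ATCG00790, ATCG00830 and ATCG01310 had broader profiles. In ATCG00830, reads of 18 to 20 nt made up 32.5% and 61.7% in PORI rpt2a and 45.5% and 49.8% in PORI, so the mutant libraries lay on either side of the control. Mean length was shorter in PORI rpt2a in 14 of the 14 loci with at least 500 counts, against 90.2% of the 1028 genes with as many counts, with differences from -0.63 to -0.02 nt. The share of 18 to 20 nt reads was above both PORI libraries in PORI rpt2a replicate 2 in all 14, against 65.5% of those genes, and in both mutant libraries in 8 of them, against 34.9%.

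Nuclear genes for partner proteins of the same machinery were tested in the same fit. Of 33 nuclear genes for plastid ribosomal proteins, 33 were tested. Their median log2 fold change was -0.07 with 20 below 0, against 51.3% of all genes. edgeR called 0, against 0.0247% of all genes lower and 0% higher, and DESeq2 called 0, against 1.11% of its genes lower and 8.7% higher. The same shares apply to the lists that follow. At an unadjusted p under 0.05 edgeR had 1 of the 33, against 7.61% of all genes lower and 15.5% higher. That 1 gene, RPL24, had 17 and 5 counts in PORI rpt2a libraries, against 36 and 27 in PORI, at -1.16 (SE 0.42, adjusted p = 0.176, edgeR). RPL4 was at -0.57 (SE 0.42). Of 12 genes for polymerase-associated proteins, 4 were tested, with a median of -0.27 and 0 called by either tool. MURE, one of them, had 3 and 2 counts in PORI rpt2a libraries, against 11 and 14 in PORI, at -1.90 (SE 0.70, adjusted p = 0.180, edgeR). PTAC3 was at -0.41 (SE 0.51) and PTAC2 at -0.13 (SE 0.56). Of 6 sigma factor genes, 2 were tested, SIG2 at -0.58 (SE 0.73) and SIGF at -0.12 (SE 0.59), and of 2 nuclear genes for phage-type RNA polymerases of organelles 1 was tested, with 0 called. Whether these nuclear lists differ from the chloroplast loci was not tested.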

How the data were processed

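Raw read counts per gene were deposited by the authors in separate columns for each length from 18 to 26 nt, in 3 tables per library (miRNA, gene and transposable element), and no normalization is recorded for them. Per the submitters' processing notes, tools of the authors were cutadapt 1.9.1, FastQC 0.11.2, CASAVA 1.8.2, DESeq2 and HTSeq, on the build TAIR10. Aligner, strand use, annotation release and the handling of reads with several places are not given in the sources used here, so overlapping and antisense transcripts cannot be told apart.

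Counts were summed over lengths, or within the classes 18 to 20, 21 to 24 and 25 to 26 nt. All genes were fitted together with edgeR 4.0.16 (limma 3.58.1, R 4.3.3; filterByExpr with a minimum count of 10 and total of 15, TMM, quasi-likelihood test, Benjamini-Hochberg threshold 0.05), checked on simulated data, and DESeq2 1.42.0 was the alternative. In that check the edgeR test recovered 7% of 2-fold changes and 70% of 4-fold changes, so in that setting it missed most changes of the smaller size. Every simulated gene and library had the same fixed spread between replicates, and the rates for the real libraries were not measured. Shares were compared by two-sided exact permutation tests over libraries (scipy 1.17.1), with 95% Wilson intervals.

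The members and lists were chosen with earlier results of these data known. Loci with at least 100 counts over the 4 libraries are given with their values in every library, as are those with an unadjusted p under 0.05, a choice made after seeing the values; of each nuclear list at most 3 genes with the smallest p are named, and 1 gene that this rule would name is not reported here. Since chloroplast identifiers could not be matched to symbols, a planned comparison with photosynthesis genes was replaced by other chloroplast loci, and planned checks of inverted-repeat copies by 2 pairs of loci with similar counts and length profiles. The pairs were sought only among loci with at least 500 counts, so inverted-repeat copies with fewer counts were not checked. Of the nuclear identifiers and others, 34001 of 38194 matched RefSeq by locus tag.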

Additional observations from a re-analysis of the deposited data

How the results depend on the processing

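The test called 0 of the 30 loci under every alternative for all lengths (DESeq2 size factors, total of the 3 tables as library size, no low-count filter, a minimum of 50 counts, DESeq2, chloroplast genes alone, 1 entry per matching pair) except leaving out libraries, where the count ranged from 0 to 18; the 18 came without PORI rpt2a replicate 1. Among reads of 21 to 24 nt it called 1 without the filter and 0 to 17 leaving out libraries (17 without PORI rpt2a replicate 1, 2 without PORI rpt2a replicate 2). For nuclear genes of plastid ribosomal proteins the range was 0 to 3, the 3 of 33 without PORI rpt2a replicate 1, where 13.5% of all genes were called lower and 16.2% higher. The cause was not tested. For DESeq2 size factors, the total of the 3 tables, chloroplast genes alone and 1 entry per matching pair, the count over all genes is not given. The 0 in those settings therefore does not set the 30 loci apart from other genes. Calls over all genes numbered 2, but 477 with DESeq2, 669 without the filter, 0 with the minimum of 50, 2733 and 1364 without PORI rpt2a replicates 1 and 2, and 18 and 27 without PORI replicates 1 and 2.

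The median log2 fold change of the 30 loci ranged from -1.20 to -0.38, the highest with chloroplast genes alone, and was -0.97 on the total of the 3 tables, a scaling that moved the median of all genes from -0.03 to -0.25. Of 358 values of single loci under 12 alternatives, 352 kept their sign and 26 loci were below 0 in every setting. The sign turned for 4 loci: ATCG01240 (-0.057 on the total of the 3 tables; leaving out libraries gave -0.034 to 0.42, the lowest without PORI replicate 1), ATCG00900 (0.23 with chloroplast genes alone; -0.31 to 0.056 leaving out libraries, the highest without PORI replicate 1), ATCG00065 (-0.91 to 0.12, the highest without PORI rpt2a replicate 1) and ATCG01020 (-1.65 to 0.014, the highest without PORI rpt2a replicate 2).

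Adding the replicate number as a block to the edgeR fit called 0 of the 30 loci, at a median of -0.86, and 606 genes in all. Same-numbered libraries deviated together with a correlation of 0.158 over all genes and 0.423 over the 30 loci, but 2 pairs cannot show a pairing and the labels give none, so the samples share only a number.

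The comparison with all 104 other chloroplast loci, at -0.94, was added after seeing the data. With 1090 reads from the 30 loci, PORI rpt2a replicate 2 limits all values for single loci and lengths.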
